A study of Mus musculus with 6 samples.

Results

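The cytosolic and mitochondrial heat shock genes are a set of 10 genes taken by symbol: the transcription factor gene Hsf1, the cytosolic chaperone genes Hsph1, Hspa8, Hspa4l, Hsp90aa1, Dnajb1, Dnajb4 and Chordc1, and the mitochondrial chaperonin genes Hspd1 and Hspe1. Of these, 9 had a probeset that the platform annotation gives to a single gene, among 19938 such genes on the array, and Hsf1 was not analysed here. A gene with several probesets was represented by the one with the highest mean over the 6 arrays, and all 9 genes were among the 14953 tested. RNA came from whole brains of male pups of the inbred strain C57BL/6J at postnatal day 7. Ethanol pups had received 2 subcutaneous doses of 2.5 g/kg, 2 h apart, as a 20% solution in 0.15 M saline, and control pups the saline alone. All pups were without their dam during the injections, and brains were taken 4 h after the first one. Each array holds RNA of 3 males from different litters pooled in equal amounts, so that differences between single pups are not seen. Pups of both treatments came from the same litters, but no number ties an ethanol array to a saline array. There were 2 ethanol arrays, numbered 2 and 4 in the labels, and 4 saline arrays, numbered 1, 3, 5 and 6.

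Heat shock proteins are chaperones, which bind unfolded proteins and help them fold, reassemble or be degraded. In the cytosol the HSP70 proteins work with J-domain proteins that bring them substrates and with HSP110 proteins that exchange their nucleotide, while HSP90 and its cochaperones act on kinases, receptors and other clients. In the mitochondrial matrix HSP60 and HSP10 form a closed folding chamber. When unfolded protein accumulates, HSF1 forms trimers and binds heat shock elements, which are inverted repeats of the letters GAA, near the start sites of many of these genes.

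Transcripts of the heat shock genes differed little between ethanol and saline pools, and none of the 9 passed the limma test after Benjamini-Hochberg adjustment over all tested genes, at a threshold of 0.05. The gene furthest apart was Chordc1, which encodes a cochaperone of HSP90, at 0.819 of its saline level with both ethanol arrays below every saline array. Hsph1, an HSP110 gene, stood at 0.904 of its saline level, and the J-domain gene Dnajb4 at 1.13 times it. On their brightest probesets, the 2 major chaperones Hspa8 and Hsp90aa1 and the mitochondrial pair Hspd1 and Hspe1 had log2 differences between -0.0054 and -0.062, with overlapping groups. The size depended on the probeset for Hspd1, whose other one gave -0.18, and for Hsp90aa1, whose others gave -0.073 and -0.12. Other probesets of Hspa8 and Hspe1 gave -0.015 to -0.020. Values below are log2 intensities, and differences are ethanol minus saline on that scale, each with its standard error (SE) from limma, for 2 ethanol and 4 saline arrays. Levels of different probesets cannot be set against each other, and in whole-brain RNA fewer cells of a type and less RNA per cell cannot be told apart.

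Over all tested genes, 0.0803% passed the adjusted threshold (12 genes, 9 higher and 3 lower), against 0 of the 9 heat shock genes. Once each array was centred on its median, 15 genes passed, of which 13 were higher. The balance turned in other settings, to 22 higher and 30 lower under a filter that removed the dimmest 50% and to 21 higher and 35 lower with array weights. When an unadjusted p under 0.05 was taken instead, Dnajb4 was higher, 1 of the 9, beside 3.85% of all tested genes. Chordc1 and Hsph1 were lower, 2 of the 9, beside 8.44% of all tested genes. Both ethanol arrays lay above all saline arrays for 2 of the 9, Dnajb4 and Hspa4l, and below them for 2, Chordc1 and Hsph1. The same held for 7.68% of all tested genes above and 14.9% below. The median difference of the 9 genes was -0.037, with 6 of the 9 below 0. That of all tested genes was -0.019, with 58.6% below 0. The median log2 level of tested genes was between 8.29 and 8.38 on every array. On the first principal component (40.9% of the variance) saline array 3 was far from the rest, at 13.5. The other saline arrays lay between -2.13 and 2.95. Ethanol arrays 2 and 4 lay below all saline arrays, at -6.61 and -7.49.

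HSP110 proteins release nucleotide from HSP70 and can hold unfolded protein themselves. Hsph1, which encodes HSP105, had levels of 10.20 and 10.26 on ethanol arrays 2 and 4. On saline arrays 1, 3, 5 and 6 it had 10.43, 10.28, 10.45 and 10.33. Both ethanol values were thus below all saline values, but only by 0.024, and saline array 3 was the nearest. The difference was -0.15 ± 0.07 (SE), with a 95% interval of -0.29 to -0.0020, an unadjusted limma p of 0.0473 and an adjusted one of 0.399. It ranged from -0.18 to -0.12 when any 1 array was left out, and the unadjusted limma p was then 0.0121 without saline array 3 and between 0.0564 and 0.214 without any of the others. Here and below, with either ethanol array left out the ethanol group is 1 array, and the p then takes that array to vary like the saline arrays.

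Hspa4l, which encodes the related protein APG-1, had levels of 9.28 and 9.33 on the ethanol arrays, compared with 9.25, 9.11, 9.24 and 9.19 on saline arrays 1, 3, 5 and 6. Both ethanol arrays were above all saline arrays, by 0.026. The difference was 0.11 ± 0.06 (95% interval -0.031 to 0.24, limma adjusted p = 0.529), and 0.077 without saline array 3. Hsph1 and Hspa4l, members of one protein family, therefore lay on opposite sides of their saline arrays. The third HSP110 gene of the mouse, Hspa4, was a relative outside the set, with 11.22 and 11.30 on the ethanol arrays and 11.39, 11.53, 11.46 and 11.37 on the saline arrays. Its difference was -0.18 ± 0.07 (limma adjusted p = 0.307), and its groups did not overlap.

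Hspa8 encodes HSC70, the HSP70 protein that neurons make at all times and that also strips clathrin from vesicles. Its brightest probeset had 13.42 and 13.54 on ethanol arrays 2 and 4, compared with 13.53, 13.49, 13.47 and 13.58 for saline. Ethanol array 2 was below every saline array and ethanol array 4 was within their range. The difference was -0.037 ± 0.063, with a 95% interval of -0.17 to 0.10. Its other 2 probesets gave -0.015 and -0.016, and without ethanol array 2 the sign turned, to 0.019. The stress-inducible HSP70 gene Hspa1a, outside the set, had 8.001 and 8.19 on the ethanol arrays and 7.98 to 8.20 on the saline arrays, with a difference of 0.0043 ± 0.076. Its 95% interval, -0.16 to 0.17, corresponds to between 10.6% less and 12.5% more than the saline level. Its near-identical copy Hspa1b lay on a probeset of several genes and was not used.

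J-domain proteins deliver clients to HSP70 and start its ATP hydrolysis. Dnajb4 had 10.60 and 10.78 on ethanol arrays 2 and 4, compared with 10.38, 10.57, 10.59 and 10.51 on saline arrays 1, 3, 5 and 6. Ethanol array 4 stood above the rest, while ethanol array 2 was above the highest saline array by only 0.0084. The difference was 0.18 ± 0.08 (95% interval 0.011 to 0.34), with an unadjusted limma p of 0.0381 and an adjusted one of 0.369. Without ethanol array 4 it was 0.084, with an unadjusted limma p of 0.383 and an adjusted one of 0.862. Without ethanol array 2 it was 0.27, with an unadjusted limma p of 0.0145 and an adjusted one of 0.332.

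Dnajb1, the classical HSP40 gene and a common readout of HSF1 activity, had 8.23 and 8.09 on the ethanol arrays. On saline arrays 1, 3, 5 and 6 it had 8.23, 7.97, 8.21 and 8.16, and the lowest value of all was on saline array 3. The groups overlapped, and the difference was 0.019 ± 0.080 (95% interval -0.16 to 0.19, limma adjusted p = 0.950). Its sign was not stable, at -0.040 without saline array 3 and -0.051 without ethanol array 2.

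Hsp90aa1 encodes the inducible cytosolic HSP90. Its brightest probeset had 12.44 and 12.43 on the ethanol arrays and 12.55, 12.41, 12.45 and 12.57 on the saline arrays. Saline arrays 3 and 5 were close to the ethanol arrays and saline arrays 1 and 6 were higher. The difference was -0.062 ± 0.065 (95% interval -0.20 to 0.078), and the other 2 probesets gave -0.073 and -0.12, each with overlapping groups. The first value was -0.037 without saline array 6 and -0.090 without saline array 3. The constitutive gene Hsp90ab1 was not analysed here.

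Chordc1 encodes the CHORD-domain protein CHP-1, also called morgana, which binds HSP90 and whose gene is itself induced by heat. It had 9.96 and 9.91 on ethanol arrays 2 and 4, compared with 10.31, 10.22, 10.14 and 10.23 on saline arrays 1, 3, 5 and 6. The gap between the groups, 0.18, was slightly larger than the range of the saline arrays. Means were 10.23 ± 0.07 (SD, n = 4) with saline and 9.94 ± 0.03 (SD, n = 2) with ethanol. The difference was -0.29 ± 0.06 (SE), with a 95% interval of -0.43 to -0.15. Chordc1 held rank 103 of 14953 genes by p-value, and its limma adjusted p was 0.105 (unadjusted p = 0.000739). Leaving out any 1 array gave differences of -0.32 to -0.26 and adjusted p-values of 0.115 to 0.488, the highest of them without ethanol array 4.

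**Figure D1:**
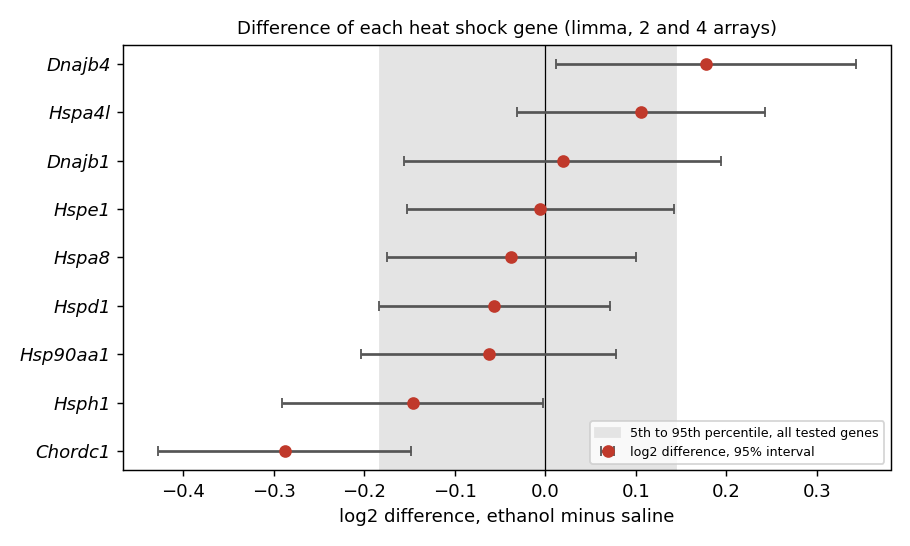
Difference in log2 intensity, ethanol minus saline, of the 9 heat shock genes (points, 95% intervals of the limma fit), with the 5th to 95th percentile of all tested genes in grey (-0.18 to 0.14). Chordc1 and Dnajb4 lie outside the grey band, and the intervals of Chordc1, Hsph1 and Dnajb4 do not include 0.

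The mitochondrial chaperonin has 2 kinds of subunit, the barrel protein HSP60 from Hspd1 and its lid HSP10 from Hspe1. Hspd1 had 2 probesets. On the brighter one, ethanol arrays 2 and 4 had 11.29 and 11.26 and saline arrays 1, 3, 5 and 6 had 11.28, 11.36, 11.33 and 11.37. Saline array 1 fell between the ethanol arrays, and the difference was -0.056 ± 0.059 (95% interval -0.18 to 0.071). On the other probeset the ethanol arrays had 9.95 and 10.03 and the saline arrays 10.03, 10.32, 10.12 and 10.20, with saline array 1 again beside the ethanol arrays. That probeset gave a difference of -0.18 ± 0.08, with an adjusted p of 0.401 (unadjusted p = 0.0419) in the limma fit of every probeset. The ethanol values were thus on the low side on both, and the sizes differed by over 3 times.

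Hspe1 had 11.18 and 11.10 on the ethanol arrays and 11.21, 11.06, 11.21 and 11.09 on the saline arrays. Both ethanol arrays were within the saline range, and the difference was -0.0054 ± 0.068 (95% interval -0.15 to 0.14). Its other probeset gave -0.020. RefSeq names 5 pseudogenes of Hspd1 and 6 of Hspe1, and Hspa8 and Hsp90aa1 also have processed copies, so probes for these genes may read more than 1 locus.

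The promoters of these genes are shown because heat shock elements are what the set is known for. Repeats of this kind lay close to a start site in Chordc1 and Hsph1, which were lower, and in Dnajb4, which was higher. RefSeq windows on build GRCm38.p6, from 250 bases before a start site to 50 after it, were at hand for 7 of the 9 genes. They were searched on both strands for a pair of inverted repeats, GAANNTTC or TTCNNGAA, and for a triple, in which a pair runs on into a further repeat (GAANNTTCNNGAA or TTCNNGAANNTTC, each the reverse complement of the other). Pairs inside a triple overlap and were counted too. Of all 32851 windows, 15.1% held a pair and 0.603% a triple, and of the genes with a window 17.0% and 0.662% did. A pair was present in 5 of the 7 genes (Chordc1, Hsph1, Hspd1, Hspe1 and Dnajb4) and a triple in 4, Dnajb4 having only the pair. A match is a description of the letters and not evidence that a factor binds there. In the windows below, written 5′ to 3′ on the strand of the gene, capitals mark every base that belongs to a pair.
Chordc1, chr9:18292017-18292316, plus strand: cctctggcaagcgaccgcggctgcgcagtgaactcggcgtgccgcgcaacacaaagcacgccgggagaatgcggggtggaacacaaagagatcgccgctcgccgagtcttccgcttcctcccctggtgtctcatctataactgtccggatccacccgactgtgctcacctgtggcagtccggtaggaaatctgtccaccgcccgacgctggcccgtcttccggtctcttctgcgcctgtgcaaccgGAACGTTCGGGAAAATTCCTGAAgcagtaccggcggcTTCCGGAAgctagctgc
Hsph1, chr5:149636266-149636565, minus strand: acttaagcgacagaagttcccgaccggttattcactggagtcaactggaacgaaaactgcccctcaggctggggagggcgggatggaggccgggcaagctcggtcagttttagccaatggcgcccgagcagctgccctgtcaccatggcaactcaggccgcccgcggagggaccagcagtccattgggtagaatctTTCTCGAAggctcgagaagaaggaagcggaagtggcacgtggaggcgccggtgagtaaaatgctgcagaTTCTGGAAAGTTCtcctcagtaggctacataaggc
Hspe1, chr1:55087898-55088197, plus strand: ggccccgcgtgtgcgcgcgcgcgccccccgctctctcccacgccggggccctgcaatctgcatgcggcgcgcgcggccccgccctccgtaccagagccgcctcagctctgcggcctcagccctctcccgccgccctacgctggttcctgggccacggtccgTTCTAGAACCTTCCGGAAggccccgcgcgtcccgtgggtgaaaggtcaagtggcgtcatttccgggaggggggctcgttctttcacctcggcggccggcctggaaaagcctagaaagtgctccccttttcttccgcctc

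In Chordc1, 4 overlapping pairs join into a run of 23 bases that crosses the start site, at chr9:18292263-18292285, and a further pair begins 33 bases after the start base. In Hsph1 the triple begins 15 bases after the start base of the window shown, and a single pair lies before it. Hspd1 and Hspe1 are transcribed in opposite directions, and the start sites of the 2 windows lie 216 bases apart. They share a run of 18 bases at chr1:55088059-55088076, which is the capital stretch of the Hspe1 window, and the window of the other Hspd1 start site held no match. The pair of Dnajb4 was TTCTAGAA, beginning 14 bases before 1 of its 2 start sites, and the window of the other held no match. Windows of Dnajb1 and Hspa4l held no exact match. Repeats with a mismatch, or outside the windows, were not searched for in any gene. The 4 genes with a triple had differences of -0.29 (Chordc1), -0.15 (Hsph1), -0.056 (Hspd1) and -0.0054 (Hspe1), the last being the smallest of the 9. A link between the repeats and the differences was not tested.

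**Figure D2:**
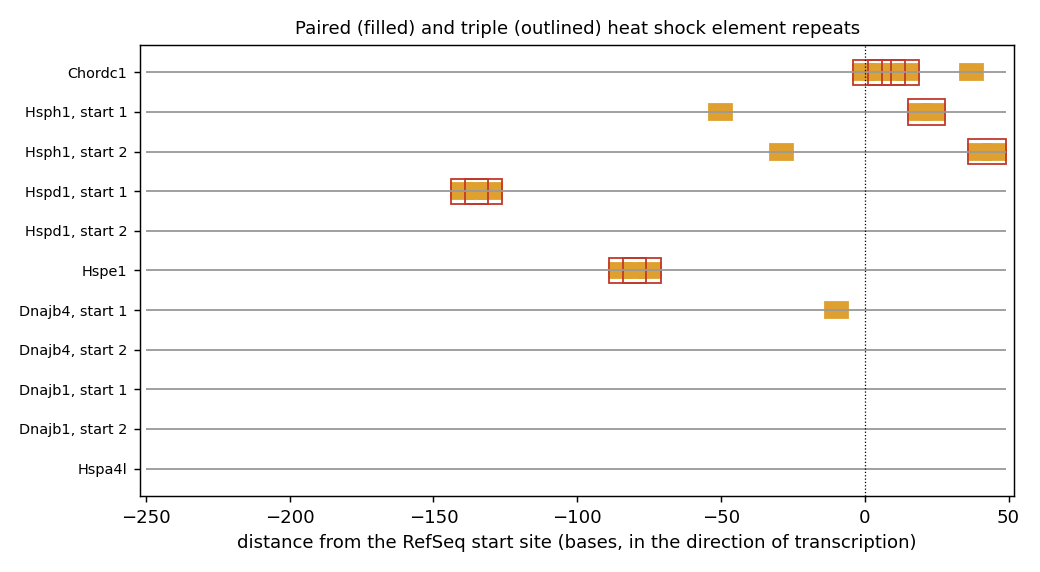
Position of paired repeats (filled boxes) and triple repeats (outlined boxes) in the RefSeq windows of 7 heat shock genes, as distance in bases from each start site (dotted line, base 0) in the direction of transcription. Chordc1 has the longest run, across the start site, and the boxes of Hspd1 and Hspe1 are the same stretch of DNA seen from either side.

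Related genes outside the set were read from 6 lists. In the cytosolic HSP70 system (20 tested), 12 genes lay above 0 and 8 below, with a median of 0.020. None passed the adjusted threshold in limma, and 1 was lower at an unadjusted p under 0.05, Hspa4, described above. Hspbp1, whose product releases nucleotide from HSP70, had -0.13 ± 0.06, and Hspa2, an HSP70 gene known from spermatogenesis, 0.15 ± 0.07 (limma adjusted p of 0.412 and 0.444). Among HSP90 cochaperones (13 tested), 10 lay below 0, the median was -0.040, and 1 was lower at an unadjusted p under 0.05. That was Stip1, which encodes HOP, the adaptor that holds HSP70 and HSP90 together. It had 10.63 and 10.66 on the ethanol arrays and 10.73 to 10.82 on the saline arrays, a difference of -0.13 ± 0.06 (limma adjusted p = 0.399). The activators of the HSP90 ATPase Ahsa1 and Ahsa2 had -0.096 ± 0.077 and -0.12 ± 0.08.

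Among mitochondrial chaperones and proteases (14 tested), 11 lay below 0, with a median of -0.027, and none had an unadjusted p under 0.05 in limma. Grpel1, the nucleotide exchange factor of mitochondrial HSP70, had 8.39 and 8.37 on the ethanol arrays, below the saline arrays at 8.47 to 8.69. Its difference was -0.16 ± 0.07 (limma adjusted p = 0.407). Hspa9, the mitochondrial HSP70 gene itself, had -0.11 ± 0.06, and the inner membrane protease gene Yme1l1 -0.094 ± 0.056. For all 3 both ethanol arrays were below every saline array, but they were named for having the smallest p of the list. They were the only 3 of the 14 for which this held, beside 14.9% of all tested genes. Of the cytosolic TRiC chaperonin genes (8 tested), 7 lay below 0, with a median of -0.027. Cct4 was the 1 with an unadjusted p under 0.05, at 10.37 and 10.43 on the ethanol arrays and 10.47 to 10.73 on the saline arrays (-0.19 ± 0.08, limma adjusted p = 0.342), and Cct8 and Cct6a had -0.069 ± 0.060 and -0.041 ± 0.060.

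Small heat shock proteins (7 tested) had 6 genes below 0 and a median of -0.075, and none had an unadjusted p under 0.05 in limma. Hspb8, which works with BAG3 in selective autophagy, was the 1 above 0, with 7.25 and 7.30 on the ethanol arrays. Saline arrays 1, 5 and 6 had 7.13, 7.18 and 7.14, and saline array 3 had 6.76, far from these. The difference was 0.22 ± 0.10 (limma adjusted p = 0.407), and 0.12 without saline array 3 (limma adjusted p = 0.334). The lens and glial chaperone gene Cryab had -0.12 ± 0.06, Hspb2 -0.12 ± 0.09 at a level within the background of the array, and Hspb1, which encodes HSP27, -0.0095 ± 0.079.

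In the list of heat shock factors and their regulators (4 tested, with Hsf3, Hsf4 and Hsf5 too dim), all lay below 0, with a median of -0.11. Hsf2 was the only heat shock factor among the 4, and Hsbp1 had -0.014. The lowest value of the list was that of Hspbap1, whose product was found by its binding to HSP27 and not to a heat shock factor. It had 7.09 and 7.10 on the ethanol arrays and 7.503, 7.392, 7.509 and 7.403 on saline arrays 1, 3, 5 and 6. The groups were apart by more than the saline range, and the difference was -0.36 ± 0.06, rank 18 of all tested genes, with a limma adjusted p of 0.0630. The adjusted p in limma was 0.0378 under a filter that removed the dimmest 50% and 0.0303 with array weights, and up to 0.388 with an array left out. Hsf2, the other widely expressed factor, had -0.10 ± 0.07, and Hsf2bp -0.12 ± 0.07 at a level within the background of the array. With the settings used throughout, no gene of the 6 lists passed the adjusted threshold in limma. At an unadjusted p under 0.05, 4 of their 66 tested genes were lower (6.06%, beside 8.44% of all tested genes) and 0 were higher (beside 3.85%). Of the 66, 69.7% lay below 0, beside 58.6% of all tested genes.

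**Figure D3:**
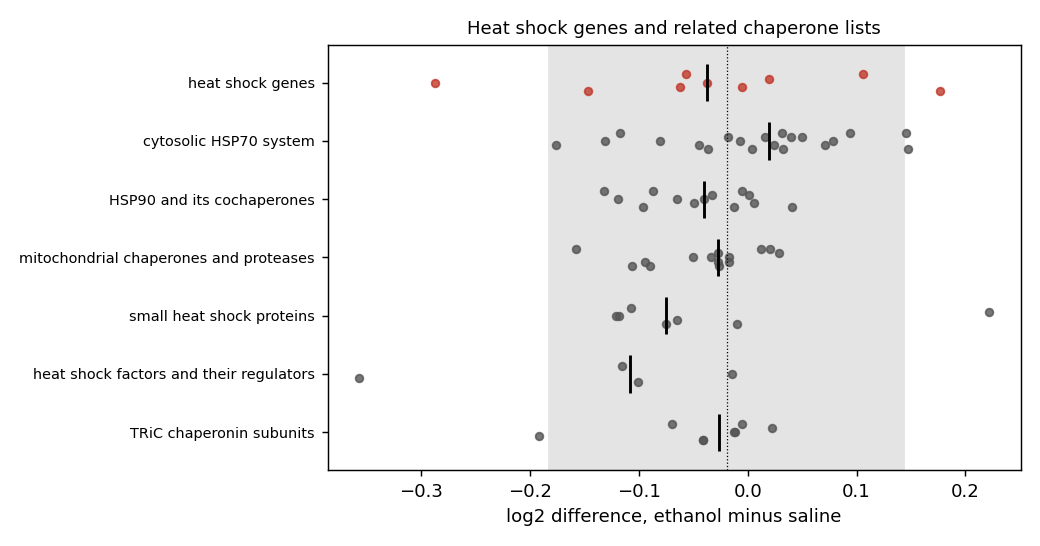
Difference in log2 intensity, ethanol minus saline, of the heat shock genes (red) and of the tested genes of 6 related lists (grey), with a black bar at the median of each list. The grey band spans the 5th to 95th percentile of all tested genes and the dotted line is their median, -0.019, and most points lie within the band.

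The genes whose levels over the 6 arrays were most like those of Chordc1 were Zbtb17, Rnf145, Mphosph10, Taf4b and Eif4a1, with Pearson correlations of 0.990 to 0.997. These values describe 6 arrays that share the 2 treatment groups, and they were the highest among all tested genes outside the set. Zbtb17 encodes the transcription factor MIZ-1, Mphosph10 a nucleolar protein of ribosome assembly and Eif4a1 the helicase of translation initiation. Their differences were -0.21 ± 0.06 for Zbtb17, -0.11 ± 0.06 for Rnf145, -0.21 ± 0.06 for Mphosph10, -0.19 ± 0.06 for Taf4b and -0.10 ± 0.06 for Eif4a1. As the genes were picked for following Chordc1, the shared direction comes from the choice. None passed the adjusted threshold in limma.

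**Figure D4:**
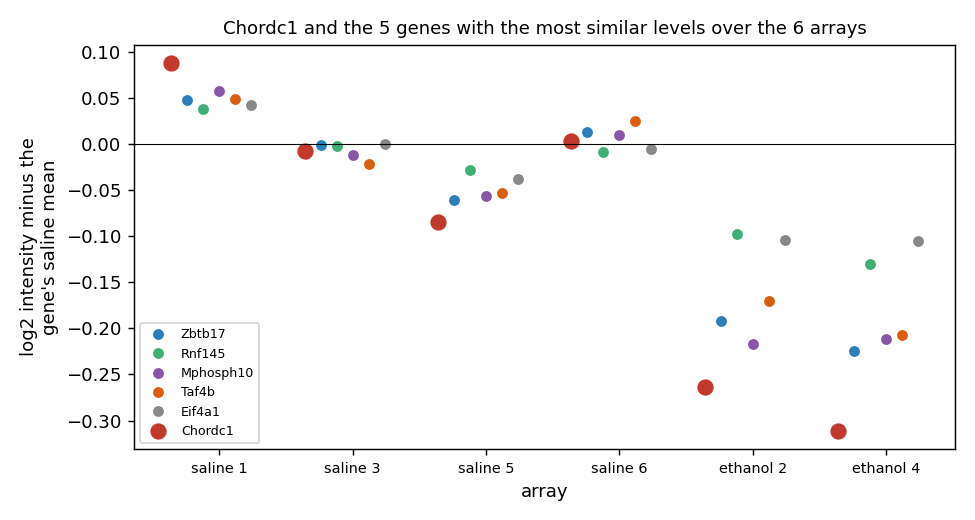
Log2 intensity minus the gene's own saline mean on each array, for Chordc1 (large red points) and the 5 genes most correlated with it over the 6 arrays. The 5 genes were picked for following Chordc1 on these same arrays, so their shared pattern is given by the choice, and Chordc1 lies at -0.26 and -0.31 on the ethanol arrays.

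Markers of brain cell types and neighbouring tissues were read beside these results. Neuron markers averaged 12.26 and 12.27 on the ethanol arrays and 12.22 to 12.34 on the saline arrays. Neuron, astrocyte, microglia, endothelium and choroid plexus lists had medians between -0.059 and -0.011. At an unadjusted p under 0.05 in limma, 1 of 8 neuron markers (Snap25) and 1 of 8 astrocyte markers (S100b) were lower. No microglia, endothelium or choroid plexus marker was called. Over all tested genes, 8.44% were lower at that p and 3.85% higher. In the oligodendrocyte list, 2 of 7 tested genes were lower at that p, Olig1 and Olig2, and the groups of Olig1 overlapped. Of the 7, 3 lay above 0 and 4 below, with a median of -0.044. That list averaged 8.86 and 8.997 on the ethanol arrays and 8.97 to 9.06 on the saline arrays. Pituitary markers were low on the ethanol arrays, though none passed the adjusted threshold in limma. Their 4 tested genes averaged 6.52 and 5.77 on ethanol arrays 2 and 4 and 6.74 to 6.94 on the saline arrays. For 3 of the 4, Gh, Cga and Fshb, both ethanol arrays were below all saline arrays, beside 14.9% of all tested genes. The same 3 had an unadjusted p under 0.05 in limma. Gh, growth hormone, was at 0.350 of its saline level (limma adjusted p = 0.162) and Cga, the shared subunit of the glycoprotein hormones, at 0.434 of its own (limma adjusted p = 0.0630). The ethanol arrays were unlike each other. On arrays 2 and 4 Gh had 7.65 and 5.72, beside 7.70 to 8.52 for saline, and Cga 7.19 and 6.06, beside 7.66 to 7.93. Both values of array 4 were within the background of the array. Prl, Pomc and Tshb were too dim to test, and Fshb and Lhb were within the background of the array. Muscle and skin markers (4 tested, 4 too dim) averaged 6.58 and 6.64 on the ethanol arrays and 6.69 to 6.78 on the saline arrays, and 2 of the 4, Acta1 and Krt10, were lower at an unadjusted p under 0.05 in limma. The 2 tested blood markers averaged 7.84 and 7.42 on the ethanol arrays and 7.54 to 8.10 on the saline arrays. The part of pituitary or other tissue in the differences of Chordc1, Hsph1 and Dnajb4 was not tested.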

How the data were processed

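For 35556 probesets of an Affymetrix whole-transcript array, the log2 values were made by the authors in Partek 6.6 before they were deposited, per the submitters' processing notes. The scale is not stated in the labels and was read from the range, 4.10 to 14.9. The normalization is not given in the sources used here. Probesets of a single gene (21789) were named from the platform annotation, with symbols updated from RefSeq for 21698. Probesets of several genes (1621) and unnamed ones (12146) were not used.

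The dimmest 25% of 19938 genes, up to 5.55, were left out. Across all genes limma 3.58.1 (lmFit and eBayes, R 4.3.3) fitted treatment as the only term, two-sided, with Benjamini-Hochberg adjustment over 14953 genes. The prior added 8.10 to 4 residual degrees of freedom. The fit was tested on simulated data. Levels up to 6.19, the 95th percentile of 1190 olfactory and vomeronasal receptor genes, are called background. Spread between pools of pups is what the p-values measure, and the number of arrays limits precision.

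The members and lists were chosen with earlier results of these data known. Named genes are all members, the 3 genes of smallest p in each list, 7 close relatives, and the 5 genes most correlated with Chordc1 and with Hspd1. Promoter sequences are from RefSeq, build GRCm38.p6. The alternatives were the filter on dim genes, the choice of probeset, centring or quantile scaling, the variance prior, array weights and leaving out each array. For genes outside the set they were added after seeing the data.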

Additional observations from a re-analysis of the deposited data

Results flagged for a closer look

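For Hspb8, saline array 3 had 6.76, far from the other saline arrays at 7.13 to 7.18, with 0.894 of the whole saline range in the gap to the nearest of them. Chance gives such a gap in about 1 in 20 groups. Without that array the difference between ethanol and saline was 0.12 in place of 0.22. The far value was the 1 such among the 39 genes looked at.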

How the results depend on the processing

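No paired analysis was possible because the ethanol and saline arrays share no replicate number. Each of the 9 heat shock genes was recomputed under 16 alternatives, and none passed the adjusted threshold in limma in any of them. The direction of the difference was kept in 135 of 144 values, but many of these could not turn. Changing the filter on dim genes or the variance prior, or fitting every probeset, leaves the difference of a gene as it is. Averaging probesets does so too where a gene has only 1. Chordc1 had an unadjusted p under 0.05 in all 16, with adjusted p from 0.0529 (a variance prior with an intensity trend) to 0.488. The direction turned for Hspe1 with centring (0.013) and quantile scaling (0.0059), without saline array 1 (0.018) or 5 (0.018) and without ethanol array 4 (0.037). It turned for Dnajb1 with array weights (-0.017), without ethanol array 2 (-0.051) and without saline array 3 (-0.040), and for Hspa8 without ethanol array 2 (0.019). With an array left out the values ran from -0.048 to 0.037 for Hspe1, from -0.051 to 0.089 for Dnajb1 and from -0.094 to 0.019 for Hspa8. Hsp90aa1 ran from -0.090 without saline array 3 to -0.037 without saline array 6. The cause was not tested.

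The number of heat shock genes at an unadjusted p under 0.05 was 3 in the main limma fit, beside 1837 of all tested genes. It was 4 after centring (beside 1915) and 1 with no variance prior (beside 1535). With a saline array left out it was 1 to 3. It was 1 without saline array 1 (beside 1934) and without saline array 6 (beside 1617). Over all genes, 12 passed in the main fit, 52 with the dimmest 50% left out (30 of them lower), 43 with an intensity trend, 56 with array weights (35 lower), and 4 to 16 with an array left out, the lowest without ethanol array 4. With no variance prior 0 passed in limma's linear model, with 1535 at an unadjusted p under 0.05. Groups did not overlap for 4 heat shock genes in the main fit, and for 3 to 6 in the alternatives where this was counted. The 6 came without ethanol array 4, where the 1 ethanol array left has only to lie outside the saline range. The share of all tested genes is not given here for these alternatives. Hspa4l had an unadjusted p of 0.0414 in limma after centring. Values of genes outside the set under these alternatives were added after seeing the data. Hspbap1 passed with the dimmest 50% left out (-0.36) and with array weights (-0.36). Hspa1a turned with array weights (-0.00075), and ran from -0.091 without ethanol array 4 to 0.0997 with 1 array left out, being -0.034 without saline array 1 and -0.00012 without saline array 5. Hspb1 turned with centring (0.0087) and quantile scaling (0.0034), and ran from -0.15 to 0.13 with an array left out, being 0.019 without saline array 1 and 0.13 without ethanol array 4. The medians of all 6 lists kept their sign without the filter on dim genes. For the HSP90, mitochondrial and TRiC lists this was fixed in advance, as none of their genes was too dim.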

Other observations

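The genes whose levels over the 6 arrays were most like those of Hspd1 were Iqcg, Zfp74, Mdh1, Sash3 and Prps2, with Pearson correlations of 0.986 to 0.996 and differences between -0.16 and -0.019 (none past the adjusted threshold in limma, and none at an unadjusted p under 0.05). Mdh1 encodes the cytosolic malate dehydrogenase and Prps2 a phosphoribosyl pyrophosphate synthetase. Among the heat shock genes themselves, Chordc1 correlated with Hsph1 at 0.688 and with Dnajb4 at -0.876 over the 6 arrays, which share the treatment groups. Dnajb1 and Hspe1, neither of which differed in level between the groups by more than 0.02, correlated at 0.859. Hspd1 and Hspe1, which share a stretch of promoter, correlated at -0.426.

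Outside the set, the RefSeq windows of Hspa1a and Hspa1b both held the pair GAAGATTC, with its first letter at base -104 from the start site, and that of Hspb1 held 2 pairs. No triple was present in these 3 windows or in those of Hspa4 and Hsf2.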
